A study of Mus musculus with 12 samples.

Results

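The genes described here are the mitochondrial SLC25 carriers, a family of inner membrane transport proteins. They were chosen by name alone, as every gene symbol in the deposited gene list made of Slc25a and a number. This rule found 47 genes of 32285. Levels are given for adipocyte-like nuclei, and 35 of the 47 reached a mean of 5 CPM (counts per 1000000 UMIs) over the 12 libraries, as 10212 genes did in all. The other 12 were below that level and are named further on.

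SLC25 proteins sit in the inner mitochondrial membrane and exchange nucleotides, acids, amino acids, vitamins and cofactors between the matrix and the cytosol, and a few members work in the peroxisome or the outer membrane. In brown fat the acylcarnitine and cofactor carriers feed fatty acid oxidation, which drives the proton gradient that uncoupling protein 1 (Ucp1) releases as heat. In white fat the citrate and dicarboxylate carriers bring carbon out of the matrix for fatty acid synthesis. The uncoupling proteins Ucp1, Ucp2 and Ucp3 belong to the same protein family but carry other symbols, so they are not among the 47 genes.

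The data are single-nucleus RNA sequencing of fat from male C57BL/6J mice on normal chow, with 1 library in each of 12 groups. Fat named mPRAT and iBAT was taken at 1, 2 and 6 months at 22 °C, and at 6 months after 3 days at 4 °C. Fat named lPRAT was taken at 2 and 6 months at 22 °C, and iWAT at 6 months at 22 °C and after 3 days at 4 °C. The labels do not spell out the depot names, but PRAT usually means perirenal fat, medial (m) or lateral (l), iBAT the brown fat between the shoulder blades and iWAT the inguinal white fat. They give 6 months in the titles but 16 weeks as the age of the same samples. No genotype or transgene separates the groups. The number of mice behind a library is not given in the labels. With 1 library per group there is no spread between replicates and no test. A difference below therefore compares 2 libraries, and each 95% interval covers counting error only.

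Promoter sequences are shown for 4 carriers on which the cold and depot results turn. They come from RefSeq on GRCm38.p6 and are printed 5′ to 3′ on the gene's strand, ending next to the first exon as GENCODE M21 annotates it. Capitals mark CG dinucleotides.
Slc25a20 chr9:108661886-108662087 (plus strand): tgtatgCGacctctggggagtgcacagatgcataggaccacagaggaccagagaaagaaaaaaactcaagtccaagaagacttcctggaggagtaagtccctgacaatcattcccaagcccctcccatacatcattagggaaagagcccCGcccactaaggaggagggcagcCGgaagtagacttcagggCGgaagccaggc
Slc25a33 chr4:149774278-149774517 (minus strand): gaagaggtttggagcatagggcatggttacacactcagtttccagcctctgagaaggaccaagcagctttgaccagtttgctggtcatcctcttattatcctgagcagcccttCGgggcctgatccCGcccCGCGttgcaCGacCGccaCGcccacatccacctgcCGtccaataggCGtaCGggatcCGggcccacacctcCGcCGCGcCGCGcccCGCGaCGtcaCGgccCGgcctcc
Slc25a1 chr16:17928220-17928469 (minus strand): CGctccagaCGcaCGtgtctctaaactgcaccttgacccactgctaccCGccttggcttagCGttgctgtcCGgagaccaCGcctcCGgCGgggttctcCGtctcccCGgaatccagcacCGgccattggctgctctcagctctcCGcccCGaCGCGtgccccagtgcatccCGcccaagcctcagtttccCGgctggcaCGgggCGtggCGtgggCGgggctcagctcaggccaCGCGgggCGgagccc
Slc25a42 chr8:70212306-70212531 (minus strand): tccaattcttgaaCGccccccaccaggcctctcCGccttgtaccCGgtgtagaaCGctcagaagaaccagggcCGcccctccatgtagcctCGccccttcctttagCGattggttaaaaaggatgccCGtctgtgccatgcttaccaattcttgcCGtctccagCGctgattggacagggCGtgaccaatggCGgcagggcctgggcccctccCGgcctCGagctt
Slc25a20, the carnitine-acylcarnitine carrier, had 8 CG dinucleotides in the 250 bases before its RefSeq start, and 43% of all promoters of that length had at least as many. Slc25a42, the coenzyme A carrier, had 18 (21.67% of promoters), Slc25a33, a pyrimidine nucleotide carrier, had 23 (13.31%) and Slc25a1, the citrate carrier, had 25 (10.67%). The median over all promoters was 6. For Slc25a20, Slc25a42 and Slc25a33 these windows hold 48, 24 and 10 exon bases that are not printed, and the printed stretches hold 4, 14 and 21 of the CG dinucleotides. RefSeq promoters were found for 36 of the 47 genes. The motif of estrogen-related receptors, TNAAGGTCA, was searched on both strands of each window of 300 bases and was in none of the 36, against 1.28% of the 32851 promoter windows. The palindromic motif of nuclear respiratory factor 1 was in the windows of Slc25a3 and Slc25a31, against 4.6% of all windows.

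The 12 libraries held 4328 to 21384 barcodes, and 1935 to 15313 nuclei in each were adipocyte-like, with a median depth of 889 UMIs in lPRAT at 2 months to 6646 in iWAT at 22 °C. The defining markers Adipoq and Plin1 were found in adipocyte-like nuclei of every library, at 39.7 to 282 CPM and 723 to 1235 CPM. The cold mPRAT library stood apart: 66% of barcodes exceeded the limit of 10% mitochondrial UMIs, against 2.04% in mPRAT at 6 months and 22 °C and 0.0877% to 22.1% in the other 10 libraries. In addition, 1161 of its 2147 adipocyte-like nuclei (54.1%) lay in a cluster of 1197 nuclei found almost wholly in that library. The genes that led this cluster included Gstm1, S100a6, Scd2 and the urothelial genes Upk1a and Upk3a. Like the other 9 adipocyte-like clusters, it had 0 fixed adipocyte markers among its 10 leading genes. It was named from its marker score, with Plin1 at 968 and Adipoq at 26.0 CPM, against 1121 and 154 CPM in the other adipocyte-like nuclei of that library. Upk3a was at 55.5 and 56.5 CPM in the same order, and Ucp1 at 1166 and 258 CPM. In that library 192 other nuclei lay in clusters with at least 100 CPM of Ucp1. They had Ucp1 at 1331 and Adipoq at 18.95 CPM, so the low Adipoq level was not particular to this cluster. Levels of cold mPRAT include this cluster, and the counts that rest on them are also given without it. The cold iBAT nuclei changed clusters as well: 97.1% lay in a cluster that held 0.679% of the iBAT nuclei at 22 °C, of which 43.6% and 42.6% were in 2 other clusters. Cold ratios of iBAT therefore compare nuclei of different clusters, and with 1 library per group a cluster and its library cannot be told apart. Pairs of libraries shared 1 to 59 kept barcodes. Of the 47 genes, 13 overlap a gene on the opposite strand, among them Slc25a26, Slc25a36, Slc25a33, Slc25a25, Slc25a10, Slc25a35 and Slc25a18. Whether the authors counted by strand is not given in the sources used here, so reads of these pairs cannot be told apart. Slc25a5 has a named pseudogene and is uncertain.

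Some cofactor carriers and the acylcarnitine carrier Slc25a20 had the highest levels per kilobase of exon among the 47 genes. Per kilobase of exon, the mean over the 12 libraries was 61.5 CPM for Slc25a20, 58.8 for Slc25a51, 56.9 for Slc25a42 and 47.4 for Slc25a17. Lower than these were Slc25a26 at 27.4 and Slc25a33 at 24.0 CPM per kilobase of exon. Nuclear RNA also holds introns. Per kilobase of the whole gene, the mean level was 25.2 CPM for Slc25a51, 13.3 for Slc25a3, 13.2 for Slc25a20 and 12.2 for Slc25a42, but 3.22 for Slc25a17, so the order depends on the length used. All values from here on are plain CPM, which compare 1 gene between libraries. The 47 genes summed to 2395, 2223, 2114 and 3362 CPM in mPRAT, 3456, 3079, 2809 and 4242 CPM in iBAT, 1382 and 1617 CPM in lPRAT, and 1299 and 1550 CPM in iWAT. In this order and below, values in a depot run from the youngest to the oldest library at 22 °C and then to cold. The 8 libraries of mPRAT and iBAT all lay above the 4 of lPRAT and iWAT.

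**Figure D1:**
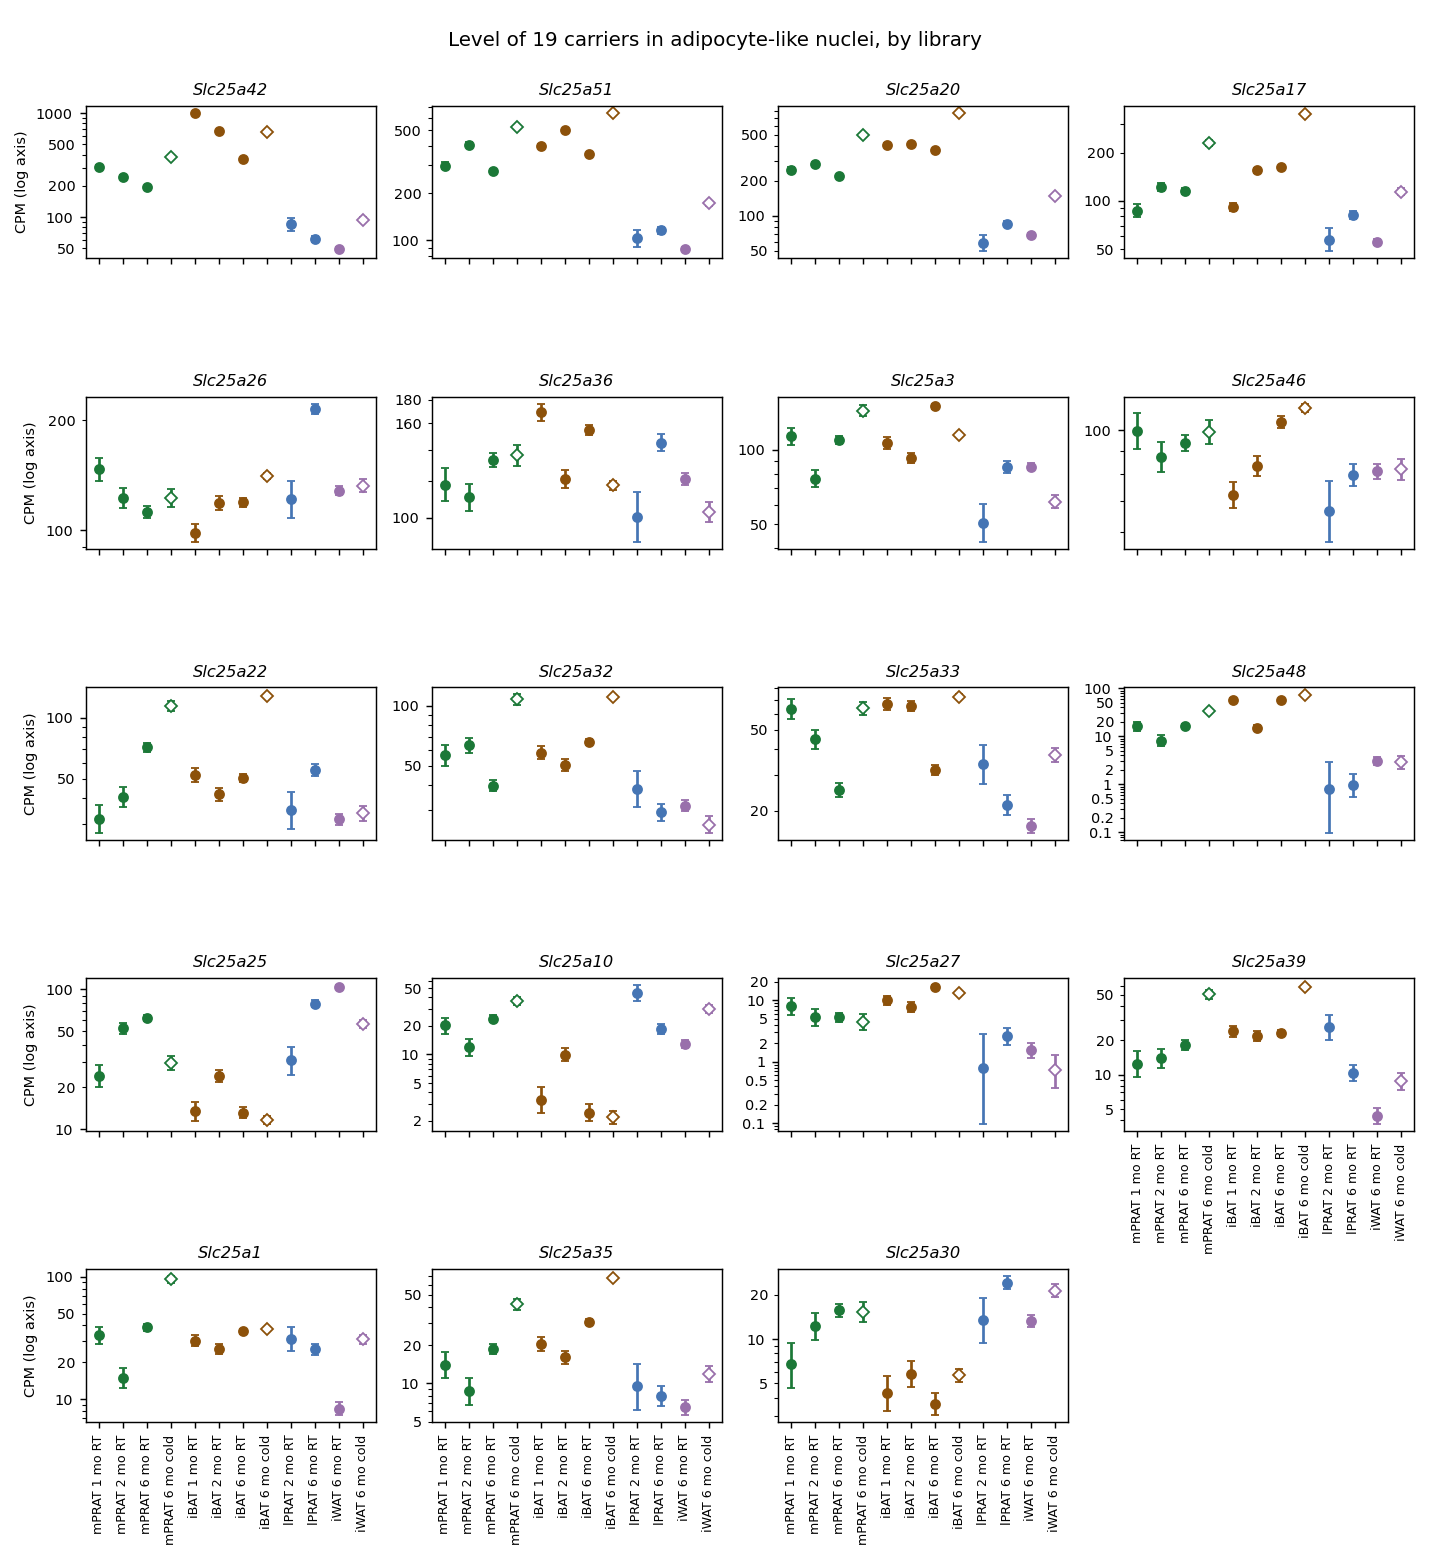
Level of 19 carriers in adipocyte-like nuclei (CPM, log axis, 1 panel per carrier) in each of the 12 libraries, with filled points at 22 °C (RT), open diamonds after cold, colours for depots and bars for the 95% counting interval of that library. Slc25a42, Slc25a51 and Slc25a20 lie higher in all mPRAT and iBAT libraries than in all lPRAT and iWAT libraries, and Slc25a10 and Slc25a30 are lowest in iBAT.

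Among cofactor, vitamin and nucleotide carriers, Slc25a42 brings coenzyme A into the matrix. Slc25a42 (chr8:70184340-70212305) was at 303, 244, 194 and 383 CPM in mPRAT and at 994, 667, 363 and 654 CPM in iBAT. The lPRAT libraries had 84.9 and 61.6 CPM, and the iWAT libraries 49.1 and 94.6 CPM. Its lowest iBAT level was above every lPRAT and iWAT level, and in both mPRAT and iBAT it was lowest at 6 months and 22 °C. Without the cluster found almost wholly in cold mPRAT, that library had 149 CPM, the lowest in mPRAT. Slc25a51 carries NAD+ into the matrix. Slc25a51 (chr4:45395923-45408766) was at 298, 407, 276 and 526 CPM in mPRAT and at 396, 503, 356 and 642 CPM in iBAT. Its levels were 103 and 116 CPM in lPRAT and 88.3 and 172 CPM in iWAT. Every mPRAT and iBAT level was above every lPRAT and iWAT level. Slc25a17 is a peroxisomal carrier of coenzyme A, FAD and NAD+. Slc25a17 (chr15:81318911-81360812) was at 87.0, 122, 115 and 229.6 CPM in mPRAT and at 91.3, 155, 162 and 350.4 CPM in iBAT. For lPRAT the values were 57.4 and 81.6 CPM, and for iWAT 55.4 and 114 CPM. It was highest after cold in each of the 3 depots with a cold library, and the cold iWAT level was within the mPRAT range at 22 °C.

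Of the other cofactor and nucleotide carriers, Slc25a26 carries S-adenosylmethionine. Slc25a26 (chr6:94500331-94604672) was at 147, 122, 112 and 123 CPM in mPRAT and at 98.3, 119, 119 and 141 CPM in iBAT. In lPRAT it was at 122 and 215 CPM, and in iWAT at 128 and 132 CPM. Its highest level, in lPRAT at 6 months, stood above the other 11, which ran from 98.3 to 147 CPM. Slc25a36 carries pyrimidine nucleotides. Slc25a36 (chr9:97074961-97111157) was at 118, 111, 133 and 136 CPM in mPRAT and at 169, 121, 155 and 118 CPM in iBAT. The lPRAT libraries had 100.5 and 145 CPM, and the iWAT libraries 121 and 103 CPM. The ranges of the 4 depots overlapped. The folate carrier is Slc25a32. Slc25a32 (chr15:39091231-39112716) was at 56.3, 63.1, 39.7 and 108 CPM in mPRAT and at 58.0, 50.3, 65.8 and 111 CPM in iBAT. Its levels were 38.3 and 29.0 CPM in lPRAT and 31.4 and 25.2 CPM in iWAT. Its highest levels were the cold libraries of mPRAT and iBAT, and in iWAT the cold level was the lower one. Slc25a33 is the other pyrimidine nucleotide carrier. Slc25a33 (chr4:149744036-149774277) was at 63.4, 44.9, 25.2 and 63.8 CPM in mPRAT and at 67.2, 65.3, 31.6 and 72.7 CPM in iBAT. For lPRAT the values were 33.9 and 21.4 CPM, and for iWAT 16.8 and 37.5 CPM. In each depot with a cold library, the 6-month level at 22 °C was lower than the cold level, and in each depot with several ages it was the lowest of them. Slc25a39 is needed for glutathione in the matrix. Slc25a39 (chr11:102402985-102407946) was at 12.5, 13.9, 18.2 and 50.2 CPM in mPRAT and at 23.9, 21.7, 23.1 and 58.7 CPM in iBAT. In lPRAT it was at 25.9 and 10.4 CPM, and in iWAT at 4.38 and 8.77 CPM. Its cold levels in mPRAT and iBAT were above every other library.

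Among acylcarnitine and amino acid carriers, Slc25a20 exchanges acylcarnitine for carnitine, the step by which long-chain fatty acids reach β-oxidation. Slc25a20 (chr9:108662088-108684641) was at 249, 280.5, 219 and 495 CPM in mPRAT and at 409, 419, 373 and 768 CPM in iBAT. The lPRAT libraries had 58.6 and 85.9 CPM, and the iWAT libraries 68.0 and 148 CPM. In mPRAT, iBAT and iWAT it was highest after cold, and the 8 mPRAT and iBAT levels were above the 4 of lPRAT and iWAT. Slc25a22 carries glutamate. Slc25a22 (chr7:141429744-141437892) was at 31.7, 40.6, 71.4 and 114 CPM in mPRAT and at 51.9, 41.8, 50.5 and 127 CPM in iBAT. Its levels were 35.1 and 55.2 CPM in lPRAT and 31.6 and 33.8 CPM in iWAT. The cold libraries of mPRAT and iBAT held its highest levels.

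Among carriers of citrate, dicarboxylates and keto acids, Slc25a1 exports citrate, the carbon source of fatty acid synthesis. Slc25a1 (chr16:17925223-17928219) was at 33.3, 14.9, 38.7 and 95.3 CPM in mPRAT and at 30.1, 25.8, 35.8 and 37.5 CPM in iBAT. For lPRAT the values were 31.1 and 25.5 CPM, and for iWAT 8.38 and 30.8 CPM. Its highest level was mPRAT after cold and its lowest iWAT at 22 °C, and its 4 iBAT levels all lay between 25 and 38 CPM. Slc25a10 exchanges dicarboxylates such as malate and succinate for phosphate. Slc25a10 (chr11:120491840-120499187) was at 20.2, 12, 23.8 and 36.4 CPM in mPRAT and at 3.34, 9.96, 2.44 and 2.18 CPM in iBAT. In lPRAT it was at 44.6 and 18.7 CPM, and in iWAT at 13 and 30.2 CPM. All 4 iBAT levels were below all others. 

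Among adenine nucleotide and phosphate carriers, Slc25a3 brings in the phosphate used by ATP synthase. Slc25a3 (chr10:91116574-91124059) was at 113, 76.5, 110.1 and 144 CPM in mPRAT and at 107, 92.6, 150.3 and 115 CPM in iBAT. The lPRAT libraries had 50.6 and 85.5 CPM, and the iWAT libraries 85.6 and 61.7 CPM. All 4 iBAT levels were above those of lPRAT and iWAT, and the mPRAT range overlapped with the other 3. Slc25a25 exchanges ATP-Mg for phosphate. Slc25a25 (chr2:32414487-32451445) was at 24.0, 52.4, 62.2 and 29.8 CPM in mPRAT and at 13.5, 24.2, 13.2 and 11.7 CPM in iBAT. Its levels were 31.1 and 78.5 CPM in lPRAT and 103 and 56.4 CPM in iWAT. It was highest in iWAT at 22 °C and lowest in iBAT after cold, and at 6 months and 22 °C the 4 depots ran from iBAT up through mPRAT and lPRAT to iWAT. Of the main ADP/ATP carriers, Slc25a4 ran from 8.37 to 34.5 CPM and Slc25a5 from 4.39 to 19.6 CPM. Both genes are short. Per kilobase of the whole gene their means were 4.51 and 2.81 CPM, beside 3.22 for Slc25a17. Per kilobase of exon they were 8.60 and 5.40 CPM, beside 47.4 for Slc25a17, so their rank depends on the length used.

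The last group holds uncoupling-protein-like, shape-related and less known carriers. Slc25a46 acts on mitochondrial shape at the outer membrane. Slc25a46 (chr18:31556111-31609911) was at 99.7, 87.4, 93.7 and 99.3 CPM in mPRAT and at 72.3, 83.5, 104 and 112 CPM in iBAT. For lPRAT the values were 66.6 and 79.8 CPM, and for iWAT 81.3 and 82.2 CPM. It varied least of the 19 carriers named with their levels. Slc25a27 and Slc25a30 resemble the uncoupling proteins. Slc25a27 (chr17:43641891-43667214) was at 8.12, 5.29, 5.26 and 4.48 CPM in mPRAT and at 10.0, 7.81, 16.4 and 13.2 CPM in iBAT. In lPRAT it was at 0.797 and 2.64 CPM, and in iWAT at 1.54 and 0.726 CPM. It was under 3 CPM in lPRAT and iWAT and above 4 CPM elsewhere. Without the cluster found almost wholly in cold mPRAT, that library had 2.19 CPM. Slc25a30 (chr14:75760117-75787037) was at 6.74, 12.2, 15.7 and 15.2 CPM in mPRAT and at 4.31, 5.83, 3.62 and 5.68 CPM in iBAT. The lPRAT libraries had 13.6 and 24.2 CPM, and the iWAT libraries 13.3 and 21.3 CPM. Here iBAT was lowest, and all its levels were below all others. Slc25a48 carries choline. Slc25a48 (chr13:56438355-56474239) was at 16.2, 8.19, 16.2 and 34.0 CPM in mPRAT and at 57.6, 15.1, 56.8 and 72.9 CPM in iBAT. Its levels were 0.797 and 0.990 CPM in lPRAT and 3.13 and 2.90 CPM in iWAT. It was under 4 CPM in every lPRAT and iWAT library and above 8 CPM in every mPRAT and iBAT library. The substrate of Slc25a35 is less known. Slc25a35 (chr11:68968131-68974365) was at 14.1, 8.69, 18.8 and 41.9 CPM in mPRAT and at 20.4, 16.1, 30.6 and 68.2 CPM in iBAT. For lPRAT the values were 9.57 and 7.92 CPM, and for iWAT 6.47 and 11.9 CPM. Its highest levels were the cold libraries of iBAT and mPRAT.

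Cold exposure was compared with 22 °C at 6 months in mPRAT, iBAT and iWAT. In mPRAT 7 of the 35 carriers were at least 2-fold higher (|log2 ratio| of at least 1, with 1 CPM added) and 2 at least 2-fold lower, against 6.24% and 6.31% of the 10212 genes. In iBAT 7 were higher and 2 lower by that much, against 5.62% and 9.49% of genes. In iWAT 5 were higher and 0 lower, against 3.12% and 4.85%. The median log2 ratio of the 35 carriers was 0.41, 0.19 and 0.04 in mPRAT, iBAT and iWAT, beside −0.02, −0.09 and −0.14 over all genes. In all 3 depots 13 carriers (37.1%) were higher after cold, against 17% of genes, and 5 (14.3%) were lower, against 32%. Among the 13 were Slc25a42, Slc25a51, Slc25a20, Slc25a17, Slc25a26, Slc25a46, Slc25a22, Slc25a33, Slc25a1, Slc25a39, Slc25a35 and Slc25a5. Some of these values were small: the log2 ratios of Slc25a46 were 0.08, 0.1 and 0.01, and those of Slc25a26 0.13, 0.23 and 0.04, in mPRAT, iBAT and iWAT. With TMM scaling, a correction for the make-up of each library, 16 carriers were higher in all 3 depots, the 13 among them, against 21.2% of genes.

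**Figure D2:**
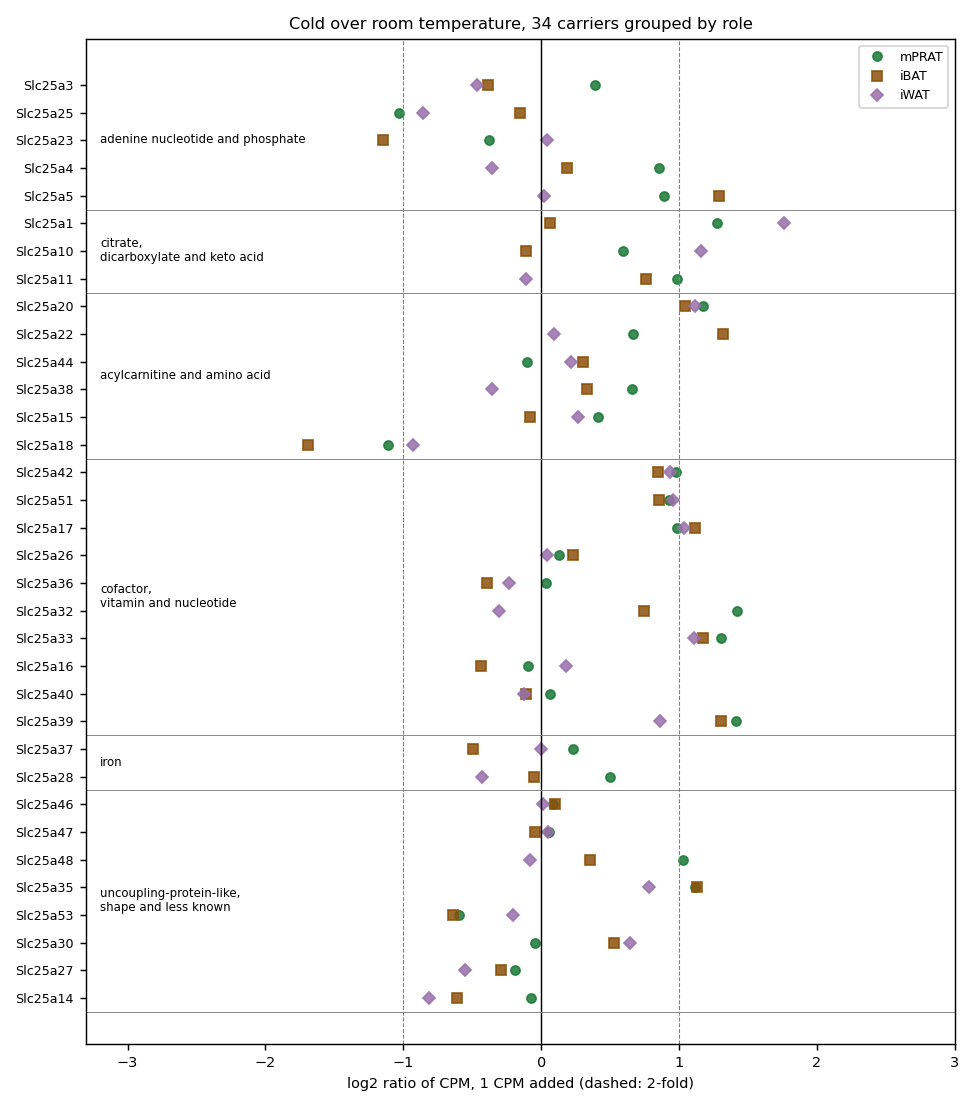
Log2 ratio of CPM (1 CPM added), cold over 22 °C at 6 months, for 34 carriers with a mean of at least 5 CPM, grouped by role, with 1 point per depot, 1 library on each side of a ratio and dashed lines at 2-fold. Slc25a20 and Slc25a33 lie past 2-fold in mPRAT, iBAT and iWAT, and 9 of the 10 cofactor, vitamin and nucleotide carriers shown lie above 0 in mPRAT.

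The acylcarnitine carrier Slc25a20 and the pyrimidine nucleotide carrier Slc25a33 were the 2 carriers (5.71%) at least 2-fold higher in all 3 depots, against 0.676% of genes, and 0 were at least 2-fold lower in all 3, against 1.15%. Without the cluster found almost wholly in cold mPRAT, the mPRAT log2 ratios of these 2 were 0.42 and 0.96, so 0 carriers were past 2-fold in all 3 depots, against 0.431% of genes. Slc25a20 was 2.26-fold (95% interval 2.18 to 2.35) higher in mPRAT, 2.06-fold (95% interval 2.02 to 2.10) in iBAT and 2.18-fold (95% interval 2.06 to 2.31) in iWAT. Slc25a33 was 2.53-fold (95% interval 2.26 to 2.82), 2.30-fold (95% interval 2.16 to 2.45) and 2.23-fold (95% interval 1.99 to 2.50) higher in the same order. Of the 11 cofactor, vitamin and nucleotide carriers, 10 were higher after cold in mPRAT, 8 in iBAT and 8 in iWAT, against 48%, 43.8% and 36.1% of genes, and 3, 3 and 2 of them by at least 2-fold. Without that cluster 7 of the 11 were higher in mPRAT, against 46.8% of genes, and 0 by 2-fold. In mPRAT the 3 were Slc25a32 (log2 ratio 1.42), Slc25a33 (1.3) and Slc25a39 (1.41). In iBAT Slc25a17 (1.11) stood beside Slc25a33 (1.18) and Slc25a39 (1.31), while for iWAT the list held Slc25a17 (1.03) and Slc25a33 (1.11). Slc25a42 stayed short of 2-fold, with log2 ratios of 0.98, 0.85 and 0.93 in mPRAT, iBAT and iWAT, and Slc25a51 likewise with 0.93, 0.85 and 0.95.

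The citrate carrier Slc25a1 had unequal cold values in the 3 depots, and the difference between depots was not tested. It was 2.46-fold (95% interval 2.25 to 2.69) higher after cold in mPRAT and 3.68-fold (95% interval 3.18 to 4.27) higher in iWAT, but 1.05-fold (95% interval 0.982 to 1.12) in iBAT. For the dicarboxylate carrier Slc25a10 the log2 ratios were 0.59, −0.11 and 1.16 in mPRAT, iBAT and iWAT. The glutamate carrier Slc25a22 was 2.52-fold (95% interval 2.40 to 2.65) higher in iBAT, with log2 ratios of 0.67 in mPRAT and 0.1 in iWAT. The other glutamate carrier, Slc25a18, was lower after cold, with log2 ratios of −1.11 in mPRAT, −1.69 in iBAT and −0.93 for iWAT. The ATP-Mg carrier Slc25a25 had log2 ratios of −1.03, −0.16 and −0.86 in mPRAT, iBAT and iWAT, and its iBAT value changed sign with TMM scaling, which moved all iBAT log2 ratios up by 0.20.

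The cold mPRAT counts depended on which nuclei were taken. Without the cluster found almost wholly in that library, 986 adipocyte-like nuclei were left, and 2 carriers were at least 2-fold higher and 0 lower. The shares of genes were 3.76% and 4.41%. These 2 were Slc25a1 (log2 ratio 1.86) and Slc25a10 (1.47), while Slc25a32 had 0.92, Slc25a39 0.76, Slc25a18 −0.99 and Slc25a25 −0.4. In all 3 depots 11 carriers (31.4%) were then higher, against 14.2% of genes, and 7 (20%) lower, against 29.2%. Of the 13, 10 were among these 11, and Slc25a42 (−0.38) and Slc25a46 (−0.34) were then lower in mPRAT. The nuclei left were also spread over the clusters in other proportions than those at 22 °C. A cluster that held 719 of the 986 held 863 nuclei (25.9%) at 22 °C. Clusters with at least 100 CPM of Ucp1 held 192 of the 986, against 42.5% of the nuclei at 22 °C. Slc25a42 was higher after cold both in clusters with under 100 CPM of Ucp1 (0.37) and in the others without the removed cluster (0.2). Slc25a46 had −0.365 and 0.13 in the same order. With no limit on mitochondrial UMIs, 3904 more nuclei joined the class in that library, 3 carriers were at least 2-fold higher and 6 lower, against 8.01% and 17.1% of genes, and Slc25a20 had a log2 ratio of −0.51, Slc25a42 −0.74 and Slc25a51 −0.66. The added nuclei held Plin1 at 35.9 CPM, against 1041 CPM in the others, the urothelial gene Upk3a at 268 against 55.9 CPM, and Slc25a20 at 43.5 against 495 CPM. Epithelial markers summed to 84.3 CPM in adipocyte-like nuclei of cold mPRAT and 3.44 CPM in mPRAT at 22 °C, with 6 of 6 markers above 0 in both. In iBAT they summed to 0.171 against 0.579 CPM, with Krt8 and Krt18 at 0 in both, and in iWAT to 0.967 against 0.58 CPM, with Epcam and Krt8 at 0 in both. The part of these nuclei in the mPRAT result was not tested. The 8 ASPC markers, all above 0, summed to 163 and 78.7 CPM in mPRAT, 97.1 and 19.3 CPM in iBAT and 208 and 212 CPM in iWAT, at 22 °C and after cold, and in 5 of these 6 libraries Bmper was the highest of them. Adipocyte-like nuclei also differed in median depth, which was 6172 UMIs at 22 °C and 4406 after cold in mPRAT, 6646 and 4711 in iWAT, and 2151 and 6624 in iBAT. The part of depth was not tested.

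Depots were compared at 6 months and 22 °C, with the same libraries that serve as the controls of the cold comparison. Between iBAT and iWAT 14 carriers were at least 2-fold higher in iBAT and 3 lower, against 14.1% and 12% of genes. After cold the difference could be read again in other libraries. In both, 12 carriers (34.3%) were at least 2-fold higher in iBAT, against 10.4% of genes, and 3 (8.57%) at least 2-fold lower, against 8.9%. Among the 12 were Slc25a42, Slc25a51, Slc25a20, Slc25a17, Slc25a32, Slc25a48, Slc25a39, Slc25a35, Slc25a4, Slc25a11 and Slc25a27. Of these, Slc25a48 and Slc25a27 reached the mean of 5 CPM only through mPRAT and iBAT, as they were below it in every iWAT and lPRAT library. The 3 lower were Slc25a25, Slc25a10 and Slc25a30. In clusters with under 100 CPM of Ucp1, where iBAT had 317 nuclei at 22 °C, Slc25a10 (0.92) and Slc25a30 (0.46) were instead higher in iBAT. With the macrophage-like level of each library subtracted, Slc25a39 (−0.86) was lower in iBAT at 22 °C. Levels below 0 after subtraction were set to 0, so this value can rest on that floor and does not show a turned direction. The choline carrier Slc25a48 was 18.1-fold (95% interval 14.9 to 22.2) higher in iBAT than in iWAT at 22 °C and Slc25a42 7.40-fold (95% interval 7.04 to 7.79). The ATP-Mg carrier Slc25a25 was 7.84-fold (95% interval 7.15 to 8.61) higher in iWAT. In clusters with under 100 CPM of Ucp1 the iBAT over iWAT log2 ratios were smaller, at 1.2 for Slc25a48, 0.61 for Slc25a42 and −0.81 for Slc25a25, so the last 2 were short of 2-fold. Macrophage markers, 6 of 6 above 0, summed to 28.5 CPM in iBAT, 72 in mPRAT, 101 in iWAT and 134 CPM in lPRAT at 6 months and 22 °C. Most of each sum was Mertk, at 24.5, 65.7, 90.9 and 124 CPM in the same order.

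**Figure D3:**
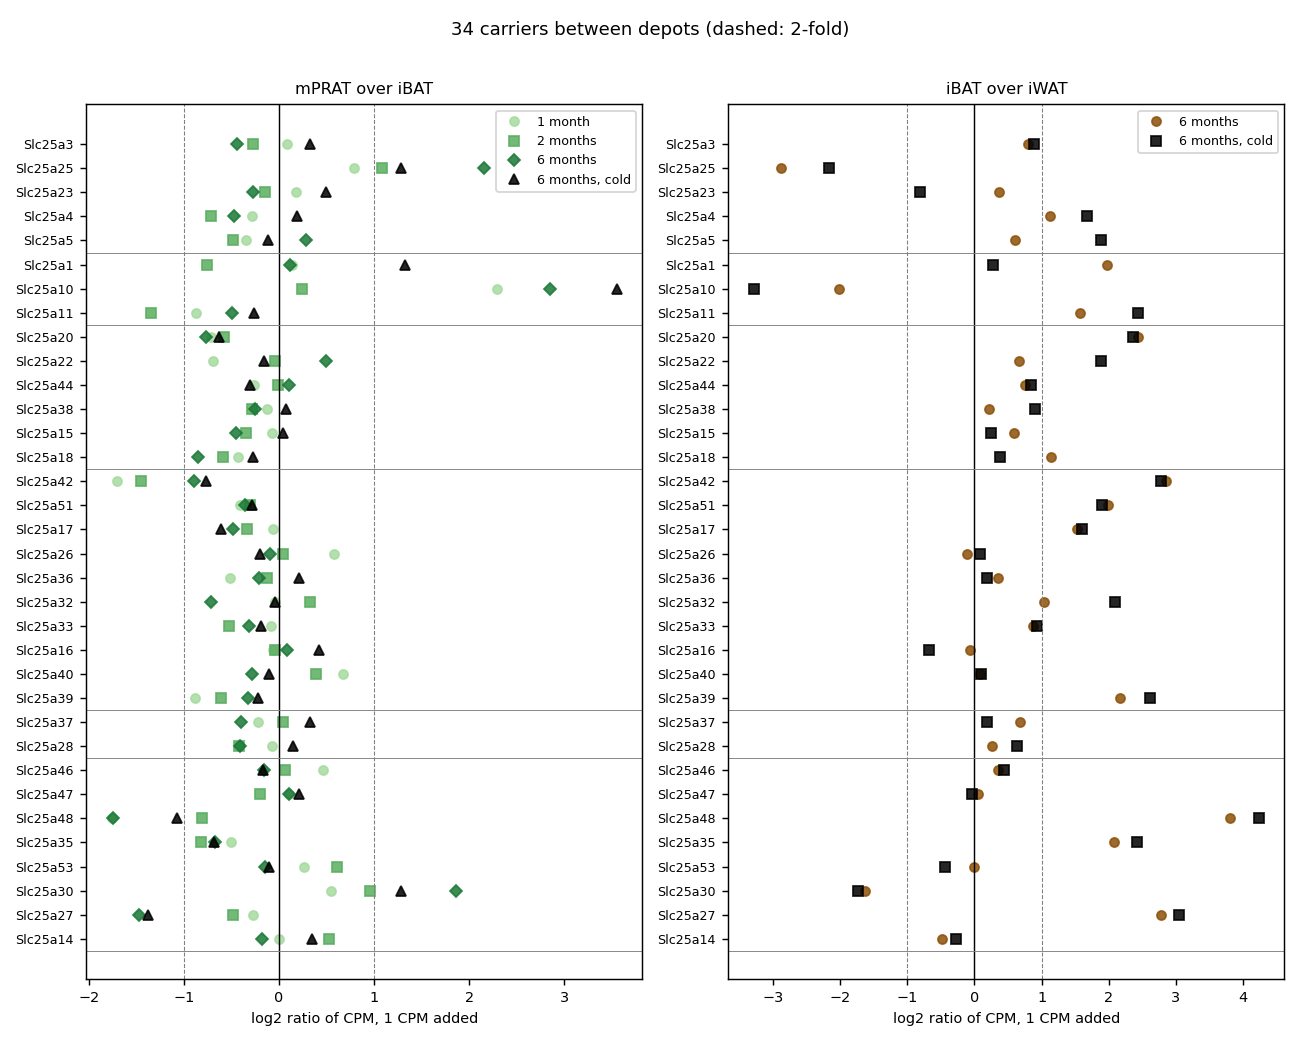
Log2 ratio of CPM (1 CPM added) for 34 carriers with a mean of at least 5 CPM, mPRAT over iBAT in 4 pairs of libraries matched for age and temperature (left) and iBAT over iWAT in 2 pairs (right), with 1 library on each side of a ratio and dashed lines at 2-fold. Slc25a25, Slc25a10 and Slc25a30 lie to the right of 0 in every mPRAT over iBAT pair and to the left of 0 in both iBAT over iWAT pairs.

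The summed level of the 47 genes in mPRAT at 6 months lay between that of iBAT and those of lPRAT and iWAT. Against iWAT 12 carriers were at least 2-fold higher in mPRAT and 0 lower (8.61% and 4.38% of genes), and against lPRAT 7 were higher and 1 lower (6.85% and 6.05%). Higher in mPRAT than lPRAT at both 2 and 6 months, at any size, were 18 carriers (51.4%, against 36.5% of genes), and 7 were lower (20%, against 29.7%). In the 2-month libraries as well as at 6 months, mPRAT exceeded lPRAT by at least 2-fold in 6 carriers (17.1%), against 3.95% of genes, among them Slc25a42, Slc25a51, Slc25a20, Slc25a48 and Slc25a18. Of these, Slc25a48 and Slc25a18 were below 5 CPM in both lPRAT libraries. In clusters with under 100 CPM of Ucp1 at 6 months the log2 ratios were −0.05 for Slc25a42, 0.53 for Slc25a51, 0.37 for Slc25a20 and 1.15 for Slc25a48. At 2 months adipocyte-like nuclei of lPRAT had ASPC markers at 347.6 and macrophage markers at 241 CPM, against 130.2 and 72.8 CPM in mPRAT. Of these sums, Bmper made 44.3 CPM in lPRAT and 110 CPM in mPRAT, and Mertk 133 and 66.5 CPM. The median depth was 889 UMIs in lPRAT against 1678 in mPRAT. The part of these differences was not tested. The iron carrier Slc25a37 (mitoferrin 1) was at least 2-fold lower in mPRAT at both ages (2.86%, against 3.67% of genes). Against iBAT at 6 months 3 were at least 2-fold higher in mPRAT and 2 lower (7.92% and 4.25% of genes). The 3 were Slc25a10, 9.74-fold (95% interval 7.84 to 12.2) higher, Slc25a25 (log2 ratio 2.16) and Slc25a30 (1.86), and the 2 lower were Slc25a48 (−1.75) and Slc25a27 (−1.47). Within clusters split at 100 CPM of Ucp1 all 5 values were smaller in size. Slc25a25 (0.52 under and 0.87 at or above that level) and Slc25a27 (0.055 and −0.5) were short of 2-fold in both sets. Slc25a10 (0.4 and 1.25) and Slc25a30 (0.051 and 1.3) were past 2-fold at or above it, and Slc25a48 (−1.15 and −0.54) under it. Slc25a10, Slc25a25 and Slc25a30 were the only carriers higher in mPRAT than in iBAT in all 4 pairs matched for age and temperature (8.57%, against 22.9% of genes). Kidney tubule markers summed to 69.6 and 64.5 CPM in mPRAT at 1 and 2 months, against 3.91 and 1.98 CPM in iBAT, and pooled kidney tubule-like nuclei held more of these carriers than adipocyte-like ones, at 53.9 against 11.6 CPM for Slc25a10, 103 against 10.1 for Slc25a30 and 61.7 against 39.3 CPM for Slc25a25. The part of such RNA in the 1- and 2-month pairs was not tested. At 6 months these sums were 2.49 and 1.61 CPM at 22 °C and 0.286 and 0.657 CPM after cold, and the 3 were higher in mPRAT in both pairs. Across the 4 pairs 0 carriers were past 2-fold in every one in either direction (2.21% and 0.627% of genes). In all 4 pairs 12 carriers (34.3%) were lower in mPRAT, against 21.2% of genes, among them Slc25a42, Slc25a51, Slc25a20 and Slc25a17. Without the cluster found almost wholly in cold mPRAT 15 were lower (42.9%, against 22% of genes), and the same 3 were higher. In clusters with at least 100 CPM of Ucp1 at 6 months and 22 °C, Slc25a42 (0.24), Slc25a51 (0.39), Slc25a20 (0.12) and Slc25a17 (0.29) were instead higher in mPRAT. In those under that level Slc25a51 (0.24) and Slc25a20 (0.018) were higher and Slc25a42 (−0.34) and Slc25a17 (−0.089) lower.

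Age was compared at 22 °C, and its 6-month libraries are again those used above. In mPRAT from 1 to 6 months 3 carriers were at least 2-fold higher and 1 lower, against 4.89% and 4.85% of genes. Those higher were Slc25a22 (log2 ratio 1.15), Slc25a25 (1.34) and Slc25a30 (1.11), and the 1 lower was Slc25a33 (−1.3). In mPRAT clusters with at least 100 CPM of Ucp1 Slc25a25 (0.3), Slc25a30 (0.41) and Slc25a33 (−0.9) were short of 2-fold, and in those under it Slc25a22 (0.85) was. In iBAT 1 was higher, Slc25a40 (1.06), and 2 lower, Slc25a42 (−1.45) and Slc25a33 (−1.06), against 4.43% and 5.25% of genes. In lPRAT from 2 to 6 months Slc25a25 (1.31), Slc25a4 (1.32) and Slc25a27 (1.02) were at least 2-fold higher and Slc25a39 (−1.24) and Slc25a10 (−1.21) lower, against 10.4% and 7.02% of genes. The value of Slc25a27 rests on few UMIs, as it was at 0.8 CPM at 2 months, in the library with the fewest adipocyte-like UMIs. With the macrophage-like level of each library subtracted, Slc25a25 (−3.95) was lower and Slc25a39 (0.47) higher at 6 months in lPRAT. Levels below 0 after subtraction were set to 0, so these 2 values can rest on that floor and do not show a turned direction. The ages compared lay largely in different clusters. A single cluster held 64.1% of iBAT nuclei at 1 month and 9.26% at 6 months, and another 1.15% and 42.6%. In lPRAT a cluster held 87.1% at 2 months and 9.25% at 6 months, where 77.3% were in another. Clusters with 31.9% and 30.4% of mPRAT nuclei at 1 month held 1.62% and 0.599% at 6 months. Median depth also differed, at 1722 and 6172 UMIs in mPRAT, 1229 and 2151 in iBAT and 889 and 6584 in lPRAT. In lPRAT 21.4% of barcodes at 2 months and 5.29% at 6 months were over the mitochondrial limit, and in mPRAT 7.42% and 2.04% at 1 and 6 months. The part of these differences was not tested. With 1 to 3 carriers in each direction, the age counts lie near the background.

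Lower in the older library of all 3 depots were 5 carriers (14.3%, against 16% of genes): Slc25a42, Slc25a33, Slc25a47, Slc25a37 and Slc25a15. In the other direction 5 carriers (14.3%, against 25.8% of genes) were higher in all 3: Slc25a17, Slc25a40, Slc25a53, Slc25a18 and Slc25a14. Past 2-fold in all 3 were 0 carriers, against 0.304% of genes higher and 0.705% lower. With TMM scaling 13 carriers were higher in all 3, these 5 among them, against 38.8% of genes, and 4 lower, against 9.21%, as Slc25a15 changed sign in a depot. The balance of the 2 directions thus depended on the scaling. Slc25a42 was 2.74-fold (95% interval 2.67 to 2.81) lower at 6 months than at 1 month in iBAT and 1.56-fold (95% interval 1.47 to 1.66) lower in mPRAT. In mPRAT its log2 ratio was −0.66 in clusters with under 100 CPM of Ucp1, which held 28.8% of nuclei at 1 month and 57.5% at 6 months, and 0.08 in the other clusters. Slc25a33 was 2.51-fold (95% interval 2.19 to 2.88) lower in mPRAT and 2.13-fold (95% interval 1.95 to 2.32) lower in iBAT. Slc25a47, a carrier known mainly from liver, went from 64.6 to 32.0 CPM in mPRAT, from 59.8 to 29.6 CPM in iBAT and from 49.4 to 24.3 CPM in lPRAT. Its log2 ratios were −0.99, −0.99 and −1.0, which lie at the 2-fold limit. TMM scaling moved the mPRAT, iBAT and lPRAT age ratios up by 0.24, 0.10 and 0.20 on the log2 scale. The summed level of the 47 genes in mPRAT at 6 months was 0.882 times that at 1 month in CPM and 1.045 times with TMM scaling, so its direction changed with the scaling. Markers of kidney tubule summed to 69.6 and 64.5 CPM in adipocyte-like nuclei of mPRAT at 1 and 2 months (6 of 6 above 0) and to 2.49 CPM at 6 months, against 3.91 and 1.61 CPM in iBAT at 1 and 6 months, and their part in the mPRAT age values was not tested. Between lPRAT at 2 and 6 months, the sum of ASPC markers was 347.6 and 132 CPM and that of macrophage markers 241 and 134 CPM, all above 0. Of these sums, Bmper made 44.3 and 96.0 CPM and Mertk 133 and 124 CPM, while Pi16 went from 128 to 2.71 and Mrc1 from 39.1 to 3.70 CPM. The part of the ASPC markers was not tested.

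The adipocyte-like nuclei fell into 10 clusters that differed in Ucp1, and the clustering used neither Ucp1 nor any of the 47 genes. Taken as a set after these levels were seen, 3 clusters were under 100 CPM of Ucp1 (low set) and 7 at or above it (high set). The clusters nearest the limit were at 45.3 and 384 CPM. These are levels over all libraries together, and inside a library a set can lie on the other side of the limit. The low set held 28.8%, 39.6%, 57.5% and 37% of adipocyte-like nuclei in mPRAT, 3.7%, 8.17%, 2.07% and 1.61% in iBAT, 99.9% in both lPRAT libraries and 99.9% and 94.5% in iWAT. At least 50 nuclei of both sets were present in 9 libraries, so the carriers could be read between sets inside 1 library. At any size, 13 carriers were higher in the high set in all 9 libraries and 3 lower, against 17.8% and 14.7% of genes. Slc25a42 and Slc25a20 were at least 2-fold higher in the high set in 9 of 9 libraries, against 1.62% of genes, and Slc25a10 at least 2-fold lower in 9 of 9, against 2.99%. Slc25a48 was at least 2-fold higher in 8 and Slc25a51 and Slc25a17 in 7 of the 9. Without the cluster found almost wholly in cold mPRAT the counts at any size were 12 and 3, and the carriers past 2-fold in all 9 were the same.

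**Figure D4:**
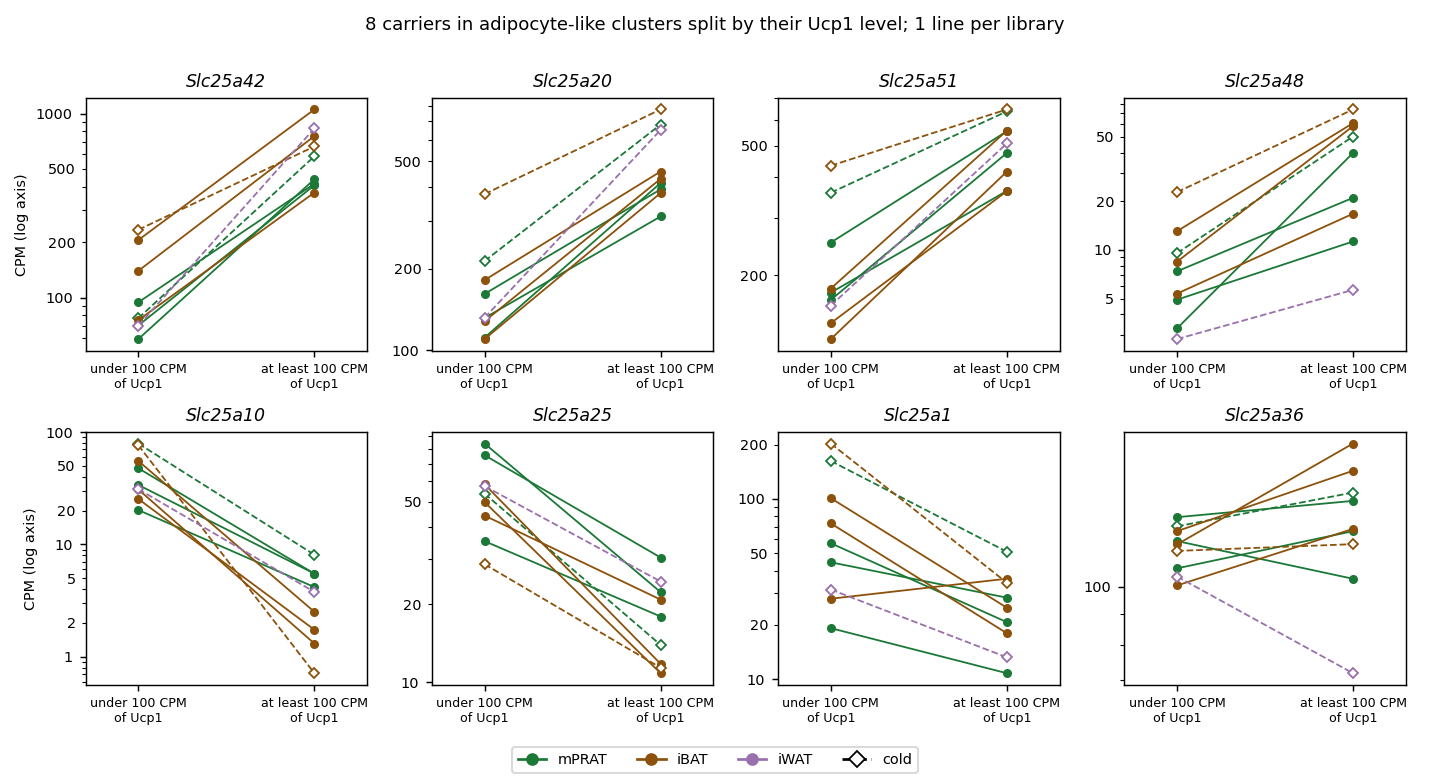
Level of 8 carriers (CPM, log axis) in the clusters under and at or above 100 CPM of Ucp1, 1 line per library in the 9 libraries with at least 50 nuclei of both, dashed after cold. Slc25a42 and Slc25a20 are higher and Slc25a10 and Slc25a25 lower at or above the limit in all 9 libraries, while lines of Slc25a36 run both ways.

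In mPRAT at 6 months and 22 °C, Slc25a42 was at 59.4 CPM in the low and 439.5 CPM in the high set, and Slc25a20 at 111 and 415 CPM. Slc25a10 was at 33.8 and 5.50 CPM, and Slc25a25 at 84.0 and 22.3 CPM. Slc25a25 was lower in the high set in all 9 libraries (8 by at least 2-fold), Slc25a30 in all 9 (4 by 2-fold) and Slc25a1 in 8 (6 by 2-fold). Fewer carriers were past 2-fold between depots within a set. Between mPRAT and iBAT at 6 months the high set held 2 carriers at least 2-fold higher in mPRAT and 0 lower (2.46% and 1.37% of genes), and the low set 0 and 1 (2.67% and 3.26%). The 2 were Slc25a10 (log2 ratio 1.25) and Slc25a30 (1.3). Between iBAT and iWAT the low set held 4 carriers higher and 1 lower (6.45% and 3.2%), where all adipocyte-like nuclei held 14 and 3, and the low set of iBAT was 317 nuclei. mPRAT over iWAT held 4 higher and 0 lower in the low set (4.63% and 3.12%), and mPRAT over lPRAT 1 and 2 (3.78% and 4.17%).

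Cold ratios within a set were not the same as those over all adipocyte-like nuclei. Slc25a33 kept log2 ratios of 1.11, 1.01 and 1.07 in the low set of mPRAT, iBAT and iWAT, and 1.12 and 1.17 in the high set of mPRAT and iBAT. Slc25a20 had 0.93, 1.77 and 0.94 in the low set and 0.71 and 1.02 in the high set. Slc25a1 had 1.84, 2.82 and 1.79 in the low set and 0.82 and −0.07 in the high set. In cold mPRAT it stood at 162 CPM in the low and 50.9 CPM in the high set. Slc25a10 was also at least 2-fold higher after cold in the low sets, with 1.2, 1.55 and 1.2. In the high sets its values were 0.48 and −0.68. Slc25a42 had 0.37, 1.62 and 0.51 in the low set and 0.41 and 0.83 in the high set. The mPRAT high set of 1353 nuclei held the cluster found almost wholly in that library, and 192 nuclei without it. In those 192 nuclei the cold log2 ratios were 0.2 for Slc25a42, 0.74 for Slc25a20, 1.13 for Slc25a33 and 0.79 for Slc25a1, and 6 carriers were at least 2-fold higher and 4 lower (7.41% and 10.5% of genes). The 4 lower were Slc25a18, Slc25a27, Slc25a14 and Slc25a53, at 4.74, 3.55, 2.37 and 10.7 CPM in these nuclei, so they rest on few UMIs. In the low sets 6, 11 and 3 carriers were at least 2-fold higher after cold in mPRAT, iBAT and iWAT, against 4.04%, 8.35% and 2.67% of genes, and 0, 2 and 0 lower, against 4.64%, 10.7% and 4.95%. The iBAT low set was 317 nuclei at 22 °C and 156 after cold. Its Ucp1 level was 37.2 CPM at 22 °C and 253 CPM after cold, so the cold nuclei of this set were not under 100 CPM. In the high sets 4 carriers were at least 2-fold higher and 1 lower in mPRAT (6.73% and 7.87% of genes), and 7 and 2 in iBAT (5.86% and 9.24%).

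Adipocyte-like nuclei were then set against other classes, made of clusters named from markers, inside each library. Against adipose stem and progenitor (ASPC)-like nuclei, 14 of 38 carriers were higher in adipocyte-like nuclei in all 12 libraries and 4 lower, against 16% and 18.9% of genes. Among the 4 lower, Slc25a21, Slc25a12 and Slc25a24 entered only through ASPC-like nuclei. Against endothelial-like nuclei the counts were 14 and 5 of 39 in 11 libraries (18.2% and 18.4% of genes). Of those lower, Slc25a12, Slc25a24 and Slc25a13 entered only through endothelial-like nuclei. Against macrophage-like nuclei they were 11 and 7 of 39 in 11 libraries (15.6% and 16.2%). Those lower that entered only through macrophage-like nuclei were Slc25a12, Slc25a45, Slc25a24, Slc25a13 and Slc25a43. In each case 1 library was left out where the other class had under 50 nuclei, lPRAT at 2 months for endothelial-like and iBAT at 2 months for macrophage-like nuclei. These counts were the same without the cluster found almost wholly in cold mPRAT. The other classes were mostly shallower, with medians of 712 to 3147 UMIs per nucleus. Slc25a42 averaged 341 CPM in adipocyte-like and 62.7 CPM in ASPC-like nuclei, Slc25a51 324 and 70.4 CPM and Slc25a20 298 and 41.0 CPM. 

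**Figure D5:**
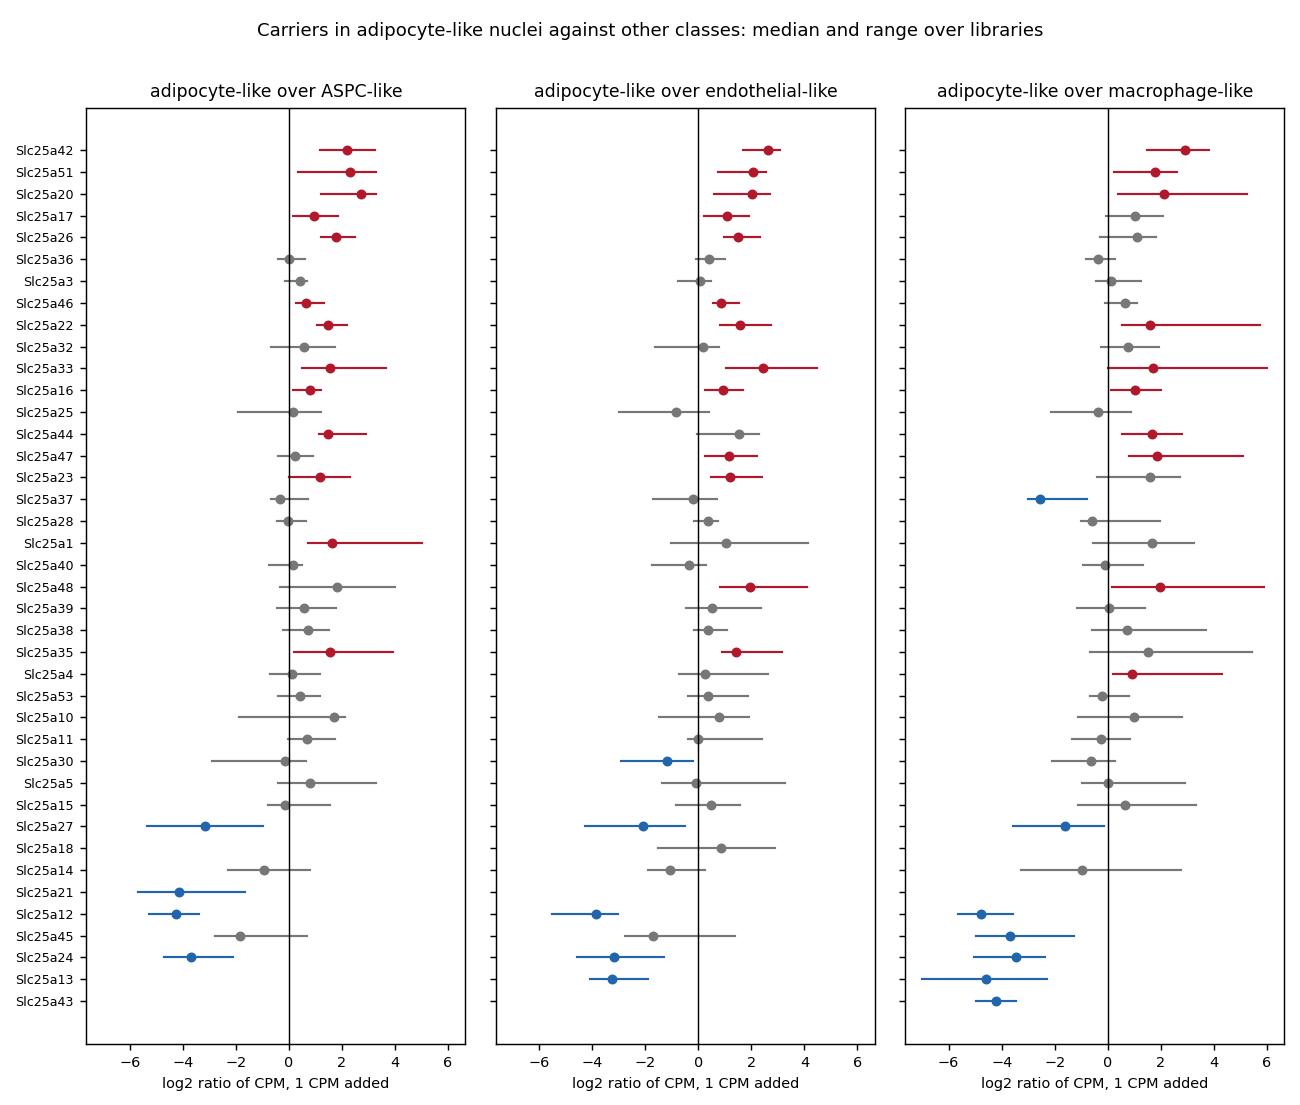
Log2 ratio of CPM (1 CPM added) in adipocyte-like over ASPC-like, endothelial-like and macrophage-like nuclei for the carriers tested, where points are medians over libraries and bars run from the lowest to the highest library. Red marks carriers higher and blue those lower in adipocyte-like nuclei in all libraries compared. Slc25a42, Slc25a51 and Slc25a20 are red while Slc25a12, Slc25a24 and Slc25a27 are blue in all 3 panels. Slc25a12 and Slc25a24, under 5 CPM in adipocyte-like nuclei, are shown only through the level of the other class.

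Several carriers that were rare in adipocyte-like nuclei were common in other classes. The aspartate-glutamate carrier Slc25a12, part of the malate-aspartate shuttle, averaged 2.54 CPM in adipocyte-like, 66.3 in ASPC-like, 53.5 in endothelial-like and 79.4 CPM in macrophage-like nuclei. Slc25a12, Slc25a24 and Slc25a27 were lower in adipocyte-like nuclei than in all 3 other classes in every library compared. Slc25a12 and Slc25a24 entered these comparisons only through the other classes. The iron carrier Slc25a37 averaged 40.8 CPM in adipocyte-like and 169 CPM in macrophage-like nuclei, and Slc25a43 0.294 and 24.3 CPM. The oxodicarboxylate carrier Slc25a21 averaged 3.60 CPM in adipocyte-like and 67.0 CPM in ASPC-like nuclei, and entered that comparison only through the latter. Its level in adipocyte-like nuclei was 9.91 and 7.06 CPM in mPRAT at 1 and 2 months and 0.705 CPM at 6 months. That of the aspartate-glutamate carrier Slc25a13 was 3.96 and 4.41, then 0.497 CPM. Both were high in kidney tubule-like nuclei, at 1452 and 415 CPM over all libraries. The kidney tubule markers given above were lowest at 6 months in these 3 libraries. The part of kidney tubule RNA in these values was not tested. In lPRAT at 2 months, Slc25a21 was at 11.2 CPM beside ASPC markers summing to 347.6 CPM, where the other 11 libraries had 19.3 to 212 CPM. The part of ASPC RNA in this value was not tested.

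The 12 carriers under a mean of 5 CPM in adipocyte-like nuclei were Slc25a34, Slc25a21, Slc25a29, Slc25a12, Slc25a45, Slc25a24, Slc25a13, Slc25a2, Slc25a43, Slc25a41, Slc25a31 and Slc25a54. The nearest to that limit were Slc25a34, just below it at a mean of 4.99 CPM, and Slc25a14 and Slc25a18, just above it at 5.63 and 5.65 CPM. The last 5 of the 12 were each under 1.5 CPM in every library and at 0 in at least 1.

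Other genes of the same pathways were read from 2 further lists. Of 22 other inner membrane transport genes, 19 reached 5 CPM. After cold, 3, 4 and 4 of the 19 were at least 2-fold higher in mPRAT, iBAT and iWAT, against 6.24%, 5.62% and 3.12% of genes. In the same order 0, 1 and 0 were at least 2-fold lower, against 6.31%, 9.49% and 4.85%. Without the cluster found almost wholly in cold mPRAT 0 were at least 2-fold higher and 0 lower in mPRAT, against 3.76% and 4.41% of genes. Ucp1 was then at 258 CPM there, and Mpc2 and Letm1 had log2 ratios of 0.81 and 0.44. Ucp1 was at 199 and 730.5 CPM in mPRAT, 437 and 1469 CPM in iBAT and 0.812 and 30.8 CPM in iWAT, at 22 °C and after cold. Mpc2, a subunit of the mitochondrial pyruvate carrier, had cold log2 ratios of 1.01, 1.03 and 1.57, and Letm1, a cation exchanger, 1.24, 1.24 and 1.2. The 1 lower in iBAT was Sfxn4 (−1.01).

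Of 24 enzymes that make or use the carried substrates, 19 reached 5 CPM. After cold, 5, 5 and 4 were at least 2-fold higher in mPRAT, iBAT and iWAT, against 6.24%, 5.62% and 3.12% of genes. In each depot 0 were at least 2-fold lower, against 6.31%, 9.49% and 4.85%. Without that cluster the mPRAT count of those higher was 2 (10.5%, against 3.76% of genes). These were Acly (log2 ratio 1.59) and Got1 (1.97), while Cpt1b had −0.42 and Cs 0.34. ATP citrate lyase, Acly, which splits the citrate that Slc25a1 exports, had log2 ratios of 1.7 in mPRAT, 0.77 in iBAT and 3.32 in iWAT. Slc25a1 had 1.28, 0.07 and 1.76 in the same order. Cpt1b, which makes the acylcarnitine that Slc25a20 carries, had 1.06, 0.69 and 3.3, beside 1.17, 1.04 and 1.12 for Slc25a20. Its relative Cpt1a had 2.03 in iBAT. Citrate synthase, Cs, had 1.0, 1.07 and 0.93. Got1, the cytosolic transaminase of the malate-aspartate shuttle, had 3.8, 3.2 and 0.42, while the shuttle's carriers Slc25a12 and Slc25a13 had means under 5 CPM and Slc25a11, the oxoglutarate carrier, had 0.99, 0.76 and −0.11.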

How the data were processed

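The authors deposited raw UMI counts for each gene in each barcode, not normalized, for 12 libraries of sorted nuclei made with 10x 3′ chemistry, 1 library per group. Per the submitters' processing notes they used Cell Ranger 7.0.0 and the build mm10. The annotation release, the counting of introns and the strand setting are not given in the sources used here. Gene positions were taken by gene identifier from GENCODE M21 on GRCm38.

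A barcode needed 500 UMIs, 300 genes and no more than 10% of its UMIs from mitochondrial genes. The highest doublet scores of the scrublet method in scanpy 1.11.5 were removed at 0.8% per 1000 nuclei. Of 119035 barcodes, 96649 were kept and 64984 were adipocyte-like. All libraries were clustered together (2000 variable genes, 30 principal components, 15 neighbours, Leiden resolution 1, 29 clusters) without the SLC25 genes, the pathway lists, mitochondrial, ribosomal protein and sex-linked genes. Clusters were named "-like" from marker lists, with at least 3 markers found.

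UMI counts were summed over the adipocyte-like nuclei of a library and scaled to CPM. Ratios are log2 values with 1 CPM added, over genes with a mean of at least 5 CPM. For ratios between classes this mean was taken over both classes. A 2-fold difference means a log2 ratio of at least 1 or at most −1. Plain ratios carry exact conditional binomial 95% intervals, and UMI counts of a library are not replicates. The code was tested on simulated data. TMM factors came from edgeR 4.0.16. Values are given in every library for the 12 carriers with the highest means and for the 8 others with the largest absolute log2 ratio, and other carriers are named after their values were seen. A carrier that enters the counts is not reported here. The members and lists were chosen with earlier results of these data known.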

Additional observations from a re-analysis of the deposited data

How the results depend on the processing

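Counts below are of carriers at least 2-fold higher, then lower, unless said otherwise, and with 1 library per group none of them has a test. The shares of all genes are not given beside them here, and a setting can move those shares too. The counts therefore show only how far they move with a setting, and do not compare carriers with other genes. Over 12 alternatives, 180 of 242 counts stayed within 1.5 times their value. Of 2300 single values, 1603 stayed within their counting interval and 10 changed the sign of a 2-fold difference. With 10 CPM added, the counts were 1 higher for mPRAT age, 0 and 1 for iBAT age, 1 and 0 for lPRAT age, 0 lower for cold mPRAT, 4 and 0 for cold iBAT, 2 higher for cold iWAT, 1 lower for mPRAT over iBAT, 5 higher for mPRAT over iWAT and 1 lower for iBAT over iWAT. With TMM scaling they were 1 lower for iBAT age, 5 higher for lPRAT age and 1 lower for cold iBAT. At 1000 UMIs or more per nucleus lPRAT age had 0 lower. With doublets kept, mPRAT age had 2 and cold mPRAT 1 lower. As a mean over nuclei, mPRAT age had 2 and cold mPRAT 1 lower, and cold iWAT 8 higher. With no minimum level, 12 more carriers count: mPRAT age had 5, lPRAT age 4 and cold iWAT 1 lower, mPRAT over iBAT had 6 higher and mPRAT over lPRAT 3 lower. With nuclei gated one by one on markers, 3 carriers were lower in adipocyte-like than endothelial-like nuclei in all 11 libraries.

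With the macrophage-like level of the same library subtracted, the counts were 5 and 6 for mPRAT age, 8 and 6 for iBAT age, 12 lower for lPRAT age, 11 higher for cold mPRAT, 14 higher for cold iBAT, 15 and 2 for cold iWAT, 8 and 5 for mPRAT over iBAT, 13 and 0 for mPRAT over lPRAT, 2 lower for mPRAT over iWAT and 5 lower for iBAT over iWAT. Subtracting changed the sign of Slc25a25 (log2 ratio −3.95) and Slc25a39 (0.47) for lPRAT age and Slc25a39 (−0.86) for iBAT over iWAT. Levels below 0 were set to 0, so these counts and signs can rest on that floor. With no mitochondrial limit mPRAT age had 3 lower and cold mPRAT 3 and 6, with Slc25a20 (−0.51), Slc25a1 (−0.18) and Slc25a35 (−0.15) reversed. The cause of these changes was not tested.

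Settings chosen after seeing the data were the Ucp1 cluster sets and the removal of the cluster found mostly in cold mPRAT. Without that cluster cold mPRAT had 2 and 0. In the high Ucp1 set cold mPRAT had 4 and 1 and mPRAT over iBAT 0 lower. In the low set the counts were 0 and 4 for iBAT age, 0 lower for cold mPRAT, 11 higher for cold iBAT, 3 higher for cold iWAT, 0 and 1 for mPRAT over iBAT, 1 and 2 for mPRAT over lPRAT, 4 higher for mPRAT over iWAT and 4 and 1 for iBAT over iWAT. The low set reversed Slc25a27 for mPRAT over iBAT (0.055), Slc25a42 for mPRAT over lPRAT (−0.051), and Slc25a10 (0.92) and Slc25a30 (0.46) for iBAT over iWAT. No paired analysis was made, and each group had 1 library. A fit over the cold pairs of 3 depots or the 4 mPRAT and iBAT pairs, which takes depots or ages as replicates, could be made and was not run. Depth limits the carriers under 5 CPM and lPRAT at 2 months, whose adipocyte-like nuclei held 2508436 UMIs against 5046236 to 70052926 in the other libraries.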

Other observations

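A carrier just under the level limit had the largest cold ratios of the family in mPRAT and iBAT. Slc25a34, whose substrate is less known, was at a mean of 4.99 CPM and was picked out after its values were seen. Slc25a34 (chr4:141618824-141623821) was at 4.56, 1.51, 1.53 and 16.4 CPM in mPRAT and at 2.69, 1.747, 1.43 and 27.6 CPM in iBAT. In lPRAT it was at 0.399 and 0.264 CPM, and in iWAT at 0.464 and 1.39 CPM. Cold over 22 °C at 6 months was 10.7-fold (95% interval 7.46 to 15.7) in mPRAT and 19.2-fold (95% interval 14.8 to 25.4) in iBAT. Without the cluster found almost wholly in cold mPRAT it was at 5.37 CPM there, a ratio of 3.50, against 3.70 for Slc25a1. In iWAT both libraries were under 1.5 CPM. Within the Ucp1 cluster sets of mPRAT it went from 0.385 to 1.67 CPM in the low set and from 3.63 to 26.2 CPM (23.7 CPM without that cluster) in the high set, and in the high set of iBAT from 1.48 to 28.0 CPM. With 1 library per group these values have no test.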
